A study of Mus musculus with 24 samples.

Results

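Collagen genes code for the chains of the collagens, the main structural proteins of the extracellular matrix. The family was taken as every gene of the count tables whose mouse symbol reads Col, a number, a and a number, which gave 44 of 41388 genes. By textbook class, 11 of them code for fibrillar collagens, 6 for the type IV collagens of basement membranes and 27 for minor collagens. Inguinal white adipose tissue, which lies under the skin of the groin, was profiled by RNA-seq in 24 libraries from mice that the series title gives as male. Nr3c2, which codes for the mineralocorticoid receptor, was floxed in every animal. Control mice carried these alleles alone. FMRKO mice also carried Cre recombinase under the adiponectin (Adipoq) promoter, which is active in adipocytes, so that other cells of the pad, fibroblasts and endothelium among them, kept the gene. Each genotype was studied on chow, on a high-fat diet and under corticosterone, the principal glucocorticoid in mice, with 4 libraries in each of the 6 groups. Whether each library stands for its own animal is not stated, and p-values therefore describe variation among libraries, some of which may be technical. The sources used here give no age, no corticosterone dose or duration, no make-up of either diet and no vehicle group, so both treatments were set against chow. Each of the 8 chow titles has a running number, which the other 16 titles lack. If that number marks a batch, it cannot be told apart from either treatment in a comparison with chow.

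Fibrillar chains assemble into the load-bearing fibres of connective tissue, and in fat they come mainly from fibroblasts and preadipocytes. Type IV chains form the sheet-like network of the basement membrane, which wraps each adipocyte and underlies the endothelium. The minor collagens connect these structures: type VI forms beaded filaments around adipocytes, the FACIT collagens sit on fibril surfaces, and the multiplexins Col15a1 and Col18a1 belong to basement membrane zones. Collagens are made of 3 chains, and partner chains such as Col1a1 and Col1a2 are coded by separate genes.

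Total counts ran from 17925109 to 40427675 per library, and collagens made up 1.01% to 3.53% of them. Of the 44 members, 39 passed the filter on low counts and were tested among 19717 genes. Col2a1, Col9a1, Col9a2, Col22a1 and Col25a1 did not pass it. The 6 adipocyte markers (such as Adipoq and Plin1) summed to 9984 to 27511 library-scaled counts (CPM), and Adipoq alone stood at 802 to 1677 CPM in every library. The 8 lymph node lymphocyte markers summed to between 156 and 614 CPM in 6 libraries (chow FMRKO 1 and 3, and libraries 1 and 4 of both genotypes on the high-fat diet), against 3.36 to 48.0 CPM elsewhere. The 8 skeletal muscle markers reached 12751 CPM in chow FMRKO 5 and were also raised, at 1779 and 317 CPM, in corticosterone control 2 and high-fat diet control 3, against 6.08 to 75.1 CPM elsewhere. Nr3c2 itself was at 23.7, 17.6, 23.8 and 28.7 CPM in chow control libraries 1, 2, 4 and 5 and at 11.3, 22, 17.7 and 25.8 CPM in chow FMRKO libraries 1, 2, 3 and 5, which overlap. In the other conditions every FMRKO library lay below every control.

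On a scale of length-scaled reads (RPKM), which allows genes to be compared with each other, the collagen transcripts were dominated by a few members. Col4a1 and Col4a2, the chains of the ubiquitous type IV collagen, had medians over all libraries of 377 and 279.6 RPKM. Col3a1 and Col1a1, the major fibrillar chains, had medians of 326 and 259 RPKM, with wide ranges of 92.1 to 765 and 93.6 to 1177. Next came Col6a1 at 146, Col5a3 at 112, Col1a2 at 106 and Col15a1 at 96.0 RPKM. These 8 genes held 78.9% to 83.6% of the collagen counts of a library. In all, 13 members had a median above 10 RPKM, 9 lay between 1 and 10, and 22 at or below 1. Among these 22 were Col24a1, Col27a1 and Col11a1 of the fibrillar class and Col4a3 and Col4a6 of the basement membrane class.

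**Figure D1:**
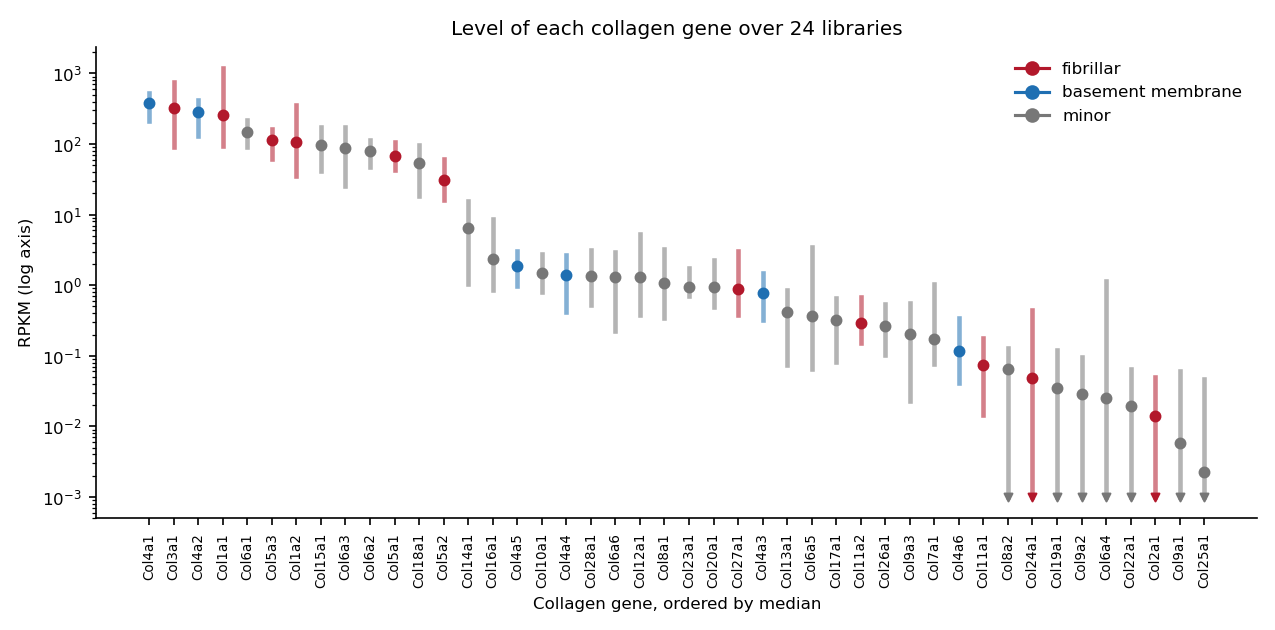
Level of each of the 44 collagen genes, in RPKM on a log axis, ordered by the median over 24 libraries. Dots are medians, bars run from the lowest to the highest library, colours give the class, and a triangle at the bottom marks members with 0 counts in at least 1 library. The 13 leading genes lie above 10 RPKM and include both of the abundant type IV chains.

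Several collagen genes are neighbours, and the stretches between or before them are shown here because their genes moved together or apart in the comparisons below. In the exon positions deposited with the counts (build GRCm38) Col4a1 (chr8:11198423-11312826, minus strand) and Col4a2 (chr8:11312805-11449287, plus strand) are transcribed away from each other and overlap by 22 bases. Col4a4 (chr1:82448423-82586849, minus strand) and Col4a3 (chr1:82586921-82722059, plus strand) are also head to head, 71 bases apart. That whole gap, read on the strand of Col4a4, lies at chr1:82586850-82586920.

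Col4a4 to Col4a3 gap: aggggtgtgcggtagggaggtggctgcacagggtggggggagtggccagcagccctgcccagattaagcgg

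The next sequences are upstream stretches with no annotated exon, from RefSeq promoter windows of GRCm38, and were chosen after the values were seen. Col3a1 (chr1:45311288-45311537, plus strand) stands for the fibrillar chains that were lower with corticosterone, and Col5a3 (chr9:20815068-20815317, minus strand) and Col18a1 (chr10:77166549-77166780, minus strand) for members that were higher. All run 5′ to 3′ on the strand of the gene. Col18a1 has a second window, at chr10:77113656-77113955, with 9 bases free of annotated exons, which is not shown. Counts per gene do not tell which start site was in use. Capitals mark TATAA (the TATA box), CCAAT (the CCAAT box) and GGGCGG (the GC box that Sp1 binds), each on either strand. The last 4 capitals of Col5a3 begin a GGGCGG that runs past the start site, and the capitals of Col3a1 hold a TATAA on each strand.

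Col3a1: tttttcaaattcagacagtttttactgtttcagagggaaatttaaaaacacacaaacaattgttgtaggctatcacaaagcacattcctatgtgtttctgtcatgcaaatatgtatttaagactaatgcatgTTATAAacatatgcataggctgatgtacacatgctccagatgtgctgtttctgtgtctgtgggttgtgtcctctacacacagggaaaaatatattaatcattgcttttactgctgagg
Col5a3: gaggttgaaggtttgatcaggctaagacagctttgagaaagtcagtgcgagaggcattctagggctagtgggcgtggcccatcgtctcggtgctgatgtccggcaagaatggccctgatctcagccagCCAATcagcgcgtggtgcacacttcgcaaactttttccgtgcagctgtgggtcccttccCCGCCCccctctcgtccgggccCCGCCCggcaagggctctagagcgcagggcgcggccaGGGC
Col18a1: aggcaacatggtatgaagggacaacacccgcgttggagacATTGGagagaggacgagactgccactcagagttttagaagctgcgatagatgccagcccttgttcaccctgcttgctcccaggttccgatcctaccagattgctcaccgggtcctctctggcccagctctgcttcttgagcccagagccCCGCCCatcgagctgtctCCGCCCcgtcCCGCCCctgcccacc

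Promoter windows of 300 bases were found for 35 of the 44 members. GGGCGG stood in 22 of the 35, against 35.6% of 32817 promoters, CCAAT in 13 against 37.4%, and TATAA in 7 against 24.9%. AGAACA, the half-site of the glucocorticoid receptor, stood in the windows of Col9a1 and Col20a1 alone, against 19.0% of all promoters. Such a match describes the letters of this window and shows no binding.

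The comparison of corticosterone with chow asked how the glucocorticoid alters the pad. In control mice most fibrillar chains were lower and the abundant type IV chains higher: 22 of 39 members were lower and 3 higher (edgeR quasi-likelihood test, adjusted p under 0.05), or 64.1% of the members against 42.9% of all genes tested (20.2% higher and 22.7% lower). The lower members were 7 of 10 fibrillar, 3 of 6 basement membrane and 12 of 23 minor collagens. The higher ones were Col4a1, Col4a2 and Col18a1. The median log2 difference was -0.83 over the collagens and -0.12 over all genes. In FMRKO mice 14 members were lower and 5 higher, 48.7% against 41.1% of all genes (20.2% higher and 20.9% lower). All 14 members lower in FMRKO mice were among the 22 lower in controls. All 3 higher in controls were among the 5 higher in FMRKO mice. Such sharing between the genotypes was not counted over all genes, here or below. Without the lymph node libraries the counts were 29 in controls and 19 in FMRKO mice, and without the muscle libraries 21 and 17. The share of all genes called in a refit is not given here or below. A change in such a count therefore cannot be told apart from a change over all genes. The libraries of the groups did not overlap for 20 of 39 members in controls and 19 in FMRKO mice (51.3% and 48.7%, against 41.9% and 37.3% of all genes).

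**Figure D2:**
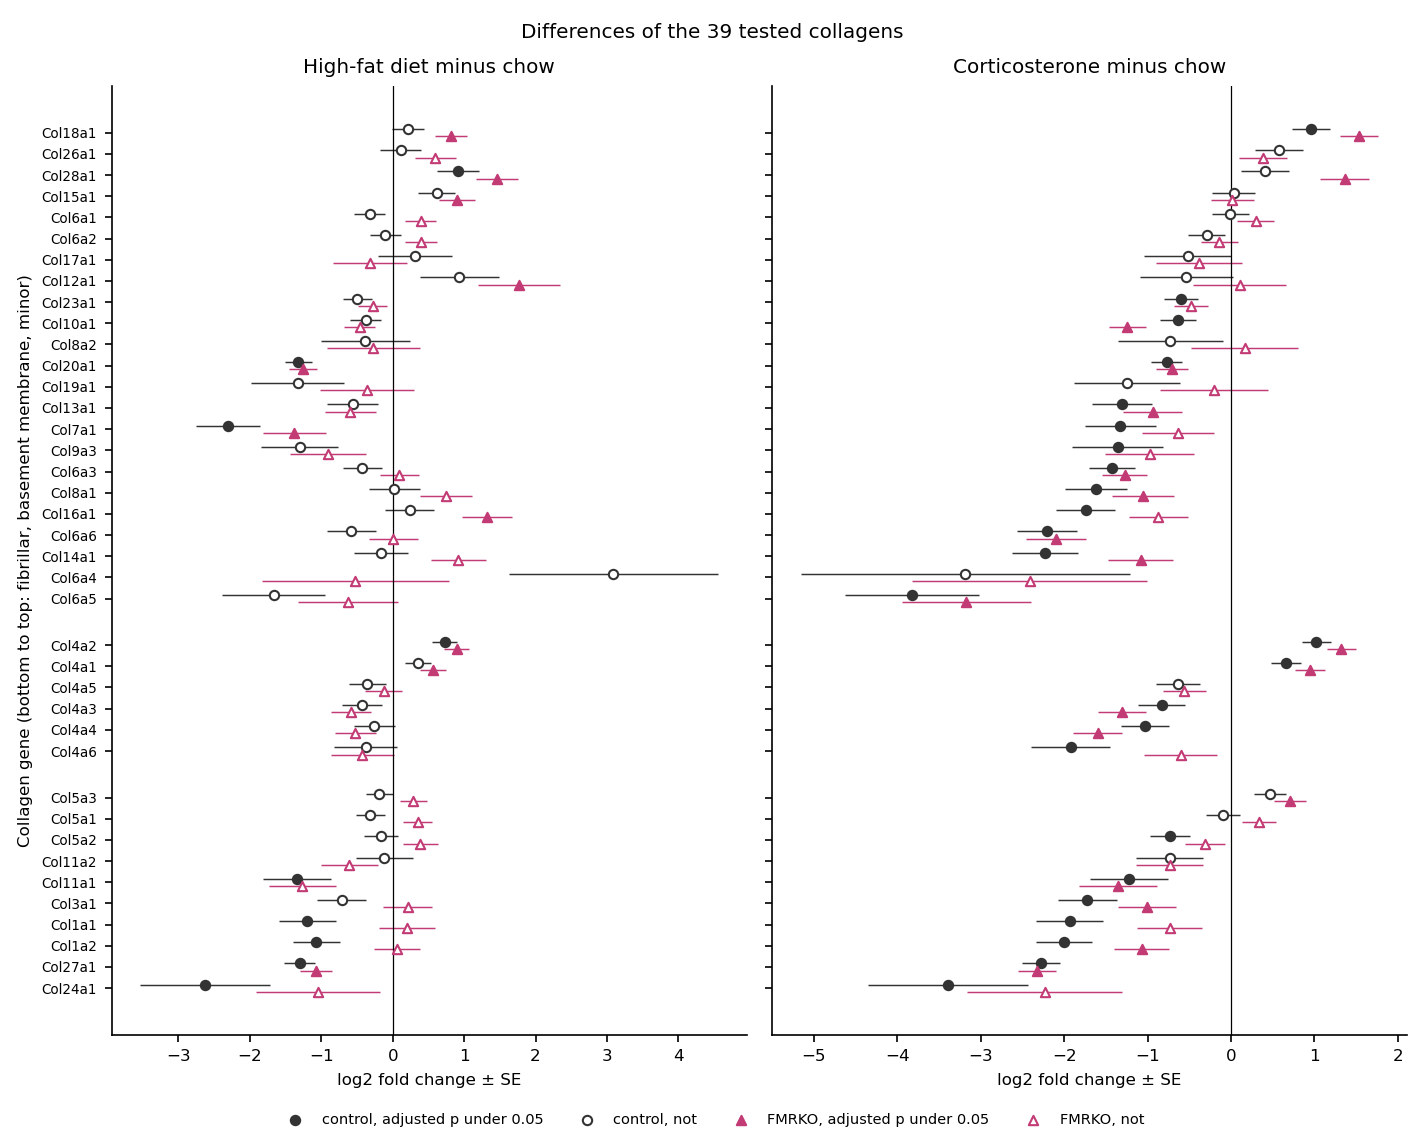
Log2 fold change with its standard error for the 39 tested collagens, high-fat diet minus chow on the left and corticosterone minus chow on the right, in control mice (circles) and FMRKO mice (triangles). Filled symbols have an adjusted p under 0.05. With corticosterone the type I and III chains lie on the lower side and Col4a1, Col4a2 and Col18a1 on the higher side in both genotypes.

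The chains of the main fibres were lower with corticosterone. Col1a1 (ENSMUSG00000001506, chr11:94936224-94953042), the alpha 1 chain of type I collagen, was at 1539, 7725, 2882 and 5095 CPM in chow control libraries 1, 2, 4 and 5. With corticosterone the controls were at 614, 1639, 1489.6 and 773 CPM in libraries 1 to 4. The chow controls differed widely among themselves, and the highest corticosterone control lay just above the lowest chow control. In the same chow controls the 6 macrophage markers summed to 255, 893, 516 and 732 CPM. Like Col1a1, they were lowest in library 1 and highest in library 2. The adipocyte markers ran in the inverse order, at 19947, 10160, 16857 and 12675 CPM. Fibroblast and preadipocyte markers summed to 499, 838, 879 and 956 CPM, also lowest in library 1 but highest in library 5. In chow FMRKO libraries 1, 2, 3 and 5 the adipocyte markers summed to 9984, 17775, 11676 and 14176 CPM. There they ran in the same order as Col1a1, given below, and not in the inverse one. Macrophage markers in these libraries summed to 378, 451, 351 and 416 CPM, highest in library 2 but lowest in library 3. The part of any of these cell types in the spread of Col1a1 was not tested. The log2 fold change of Col1a1 was -1.93 ± 0.40 (adjusted p = 6.8e-04). In FMRKO mice Col1a1 was at 1569, 2997, 1666 and 2159 CPM on chow and 1247, 711, 1536 and 1554 CPM with corticosterone, without overlap, a difference of -0.73 ± 0.39 that did not pass the threshold (adjusted p = 0.139). Its partner chain Col1a2 was at 1205, 4369, 2393 and 3474 CPM in chow controls and 427, 952, 936 and 536 CPM with corticosterone. It fell in both genotypes, with log2 differences of -2.0 ± 0.34 and -1.07 ± 0.33 (adjusted p = 8.8e-05 and 0.014). Corticosterone and chow libraries did not overlap in either genotype.

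Col3a1 (chr1:45311538-45349706), the type III chain of fine reticular fibres, was at 3205, 7511, 4754 and 6692 CPM in chow controls and 944, 2497, 2383 and 904 CPM in corticosterone controls, a log2 difference of -1.72 ± 0.35 (adjusted p = 5.8e-04). In FMRKO mice it went from 2747, 4683, 2810.3 and 3497 to 1762, 918, 2077 and 2065 CPM, a log2 difference of -1.01 ± 0.35 (adjusted p = 0.024). The groups were apart in both genotypes. The FMRKO call was lost without chow FMRKO 2 and without corticosterone FMRKO 2 (adjusted p = 0.077 in each), with differences of -0.82 and -0.81. It was also lost with the replicate number as a block.

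The type V chains, which nucleate type I fibrils, did not follow as a group. Col5a1 was at 439, 894, 579.8 and 724 CPM in chow controls and 501, 774, 715 and 485 CPM with corticosterone, with log2 differences of -0.09 ± 0.21 in controls and 0.34 ± 0.21 in FMRKO mice (adjusted p = 0.746 and 0.191). The control difference was 0.13 without chow control 2, 0.02 without corticosterone control 1 and 0.03 without corticosterone control 4. Col5a2 was lower in controls, -0.73 ± 0.24 (adjusted p = 0.019). That call was lost without chow control 2 (-0.45), corticosterone control 1 (-0.62) or corticosterone control 4 (-0.58). It was also lost with only the groups compared. Col5a3, the type V chain most abundant in this tissue, was at 515, 768, 534 and 521 CPM in chow FMRKO mice and 1085, 821, 835 and 1086 CPM with corticosterone. It rose in FMRKO mice, 0.71 ± 0.19 (adjusted p = 0.006), and its control difference was 0.47 ± 0.19 (adjusted p = 0.051), with groups apart in both.

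Of the fibrillar members with low levels, Col27a1 gave the clearest separation. Its chow controls stood at 23.3, 36.2, 29.4 and 37.6 CPM and its corticosterone controls at 4.87, 7.43, 6.97 and 6.76 CPM. In FMRKO mice it was at 30.0, 39.8, 18.5 and 30.6 CPM on chow and 5.82, 5.74, 6.73 and 5.39 CPM with corticosterone. The log2 differences were -2.28 ± 0.23 and -2.32 ± 0.23 (adjusted p = 2.8e-07 and 3.3e-07). Col24a1 was at 0.514, 3.38, 0.632 and 1.5 CPM in chow controls and 0.287, 0, 0.165 and 0.128 CPM with corticosterone, a log2 difference of -3.39 ± 0.96 (adjusted p = 0.007). Chow control 2 held its highest value, and without that library the difference was -2.57 (adjusted p = 0.044). Without corticosterone control 1 it was -4.00. Col11a1, a chain of cartilage fibrils, fell, with a log2 difference of -1.35 in FMRKO mice (adjusted p = 0.026), a call lost without chow FMRKO 2 (-1.17), chow FMRKO 5 (-1.27), corticosterone FMRKO 2 (-1.2) or corticosterone FMRKO 4 (-1.31).

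The 2 abundant basement membrane chains went the other way. Col4a1 was at 2106, 2261, 2075 and 1912 CPM in chow controls and 3621, 3538, 3428 and 2591 CPM with corticosterone. In FMRKO mice it was at 1451, 2192, 1601 and 1642 and 3609, 2991, 3079 and 3628 CPM. Each corticosterone library lay above each chow library of its genotype. The log2 differences were 0.66 ± 0.18 and 0.95 ± 0.18 (adjusted p = 0.005 and 3.1e-04). Col4a2, its partner in the trimer, was at 1252, 1283, 1215 and 1089.5 CPM in chow controls and 2740.2, 2667, 2595 and 1846 CPM with corticosterone. It rose by 1.02 ± 0.18 in controls and 1.32 ± 0.18 in FMRKO mice (adjusted p = 1.1e-04 and 1.0e-05), again without overlap.

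Col4a3 and Col4a4, chains of the specialised basement membrane network of kidney and lung, were far less abundant and were lower. Col4a4 was at 14.6, 15.2, 21.6 and 21.6 CPM in chow controls and 11.2, 6.61, 13.3 and 4.49 CPM with corticosterone, and at 16.6, 18.9, 23.7 and 28.1 and 9.43, 5.39, 6.79 and 7.18 CPM in FMRKO mice. Both genotypes had groups apart, with differences of -1.04 ± 0.29 and -1.60 ± 0.29 (adjusted p = 0.006 and 2.4e-04). Col4a3, on the other side of the 71-base gap printed above, fell, with log2 differences of -0.83 and -1.30 (adjusted p = 0.023 and 0.001). An antisense gene overlaps 5.65% of the exon bases of Col4a3, and strand use in counting is not given in the sources used here. Col4a6 was lower in controls, -1.92 ± 0.47 (adjusted p = 0.003), and Col4a5 passed in neither genotype.

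Among the type VI chains Col6a3 separated from Col6a1 and Col6a2, with which it assembles. Col6a3 was at 985, 2054, 1293 and 1434 CPM in chow controls and 301, 681, 738 and 431 CPM with corticosterone, and at 1029, 1702, 1006 and 1199.6 and 566, 323, 559 and 592 CPM in FMRKO mice. It was lower without overlap in both, with log2 differences of -1.42 ± 0.28 and -1.28 ± 0.27 (adjusted p = 3.5e-04 and 0.001). Col6a1 was at 516, 961, 586 and 699.9 CPM in chow controls and 509, 798, 871 and 567 CPM with corticosterone, overlapping throughout. Its differences were -0.01 ± 0.22 and 0.30 ± 0.22, and those of Col6a2 -0.29 ± 0.22 and -0.14 ± 0.22 (adjusted p between 0.288 and 0.978). The low-level relatives Col6a5 and Col6a6 fell in both genotypes. Col6a6 went from 9.48, 24.4, 14 and 26.5 to 3.84, 4.30, 5.94 and 2.05 CPM in controls, a log2 difference of -2.20 ± 0.36 (adjusted p = 7.1e-05). Col6a5 changed by -3.83 ± 0.80 in controls (adjusted p = 7.1e-04). Its chow controls ran from 0.739 to 33.0 CPM with the highest value in library 2, without which the difference was -2.54 (adjusted p = 0.006).

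Of the 6 FACIT collagens tested, 4 were lower in controls and 2 in FMRKO mice, and of the 3 network collagens 2 and 2. Among all genes 22.7% were lower in controls and 20.9% in FMRKO mice. Col14a1, a FACIT collagen of fibril surfaces, was at 30.0, 91.9, 82.7 and 108 CPM in chow controls and 10.0, 24.1, 16.1 and 16.3 CPM with corticosterone, a difference of -2.23 ± 0.40 in controls and -1.08 ± 0.39 in FMRKO mice (adjusted p = 1.7e-04 and 0.031). Col16a1, another FACIT collagen, was lower in controls, with a log2 difference of -1.74 (adjusted p = 5.8e-04). Col8a1, a short-chain collagen of vessel walls, fell, with log2 differences of -1.61 and -1.06 (adjusted p = 0.002 and 0.027). Col10a1, a network collagen of growth plate cartilage, fell, with a log2 difference of -1.24 in FMRKO mice (adjusted p = 2.0e-04).

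The multiplexins did not move alike. Col18a1, whose C-terminal part is released as endostatin, was at 175, 374, 336 and 316 CPM in chow controls and 568, 672, 567 and 524 CPM with corticosterone, and at 130.0, 267, 152 and 206 and 554, 580.3, 474 and 577 CPM in FMRKO mice. It rose without overlap by 0.96 ± 0.23 and 1.53 ± 0.23 (adjusted p = 0.002 and 3.3e-05). Col15a1 was at 609.8, 578, 560.4 and 512 CPM in chow controls and 371, 709, 822 and 405 CPM with corticosterone, with differences of 0.03 ± 0.26 and 0.02 ± 0.26 that did not pass (adjusted p = 0.936 and 0.968). Col28a1, a collagen found near Schwann cells, rose in FMRKO mice by 1.36 ± 0.30 (adjusted p = 0.001).

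**Figure D3:**
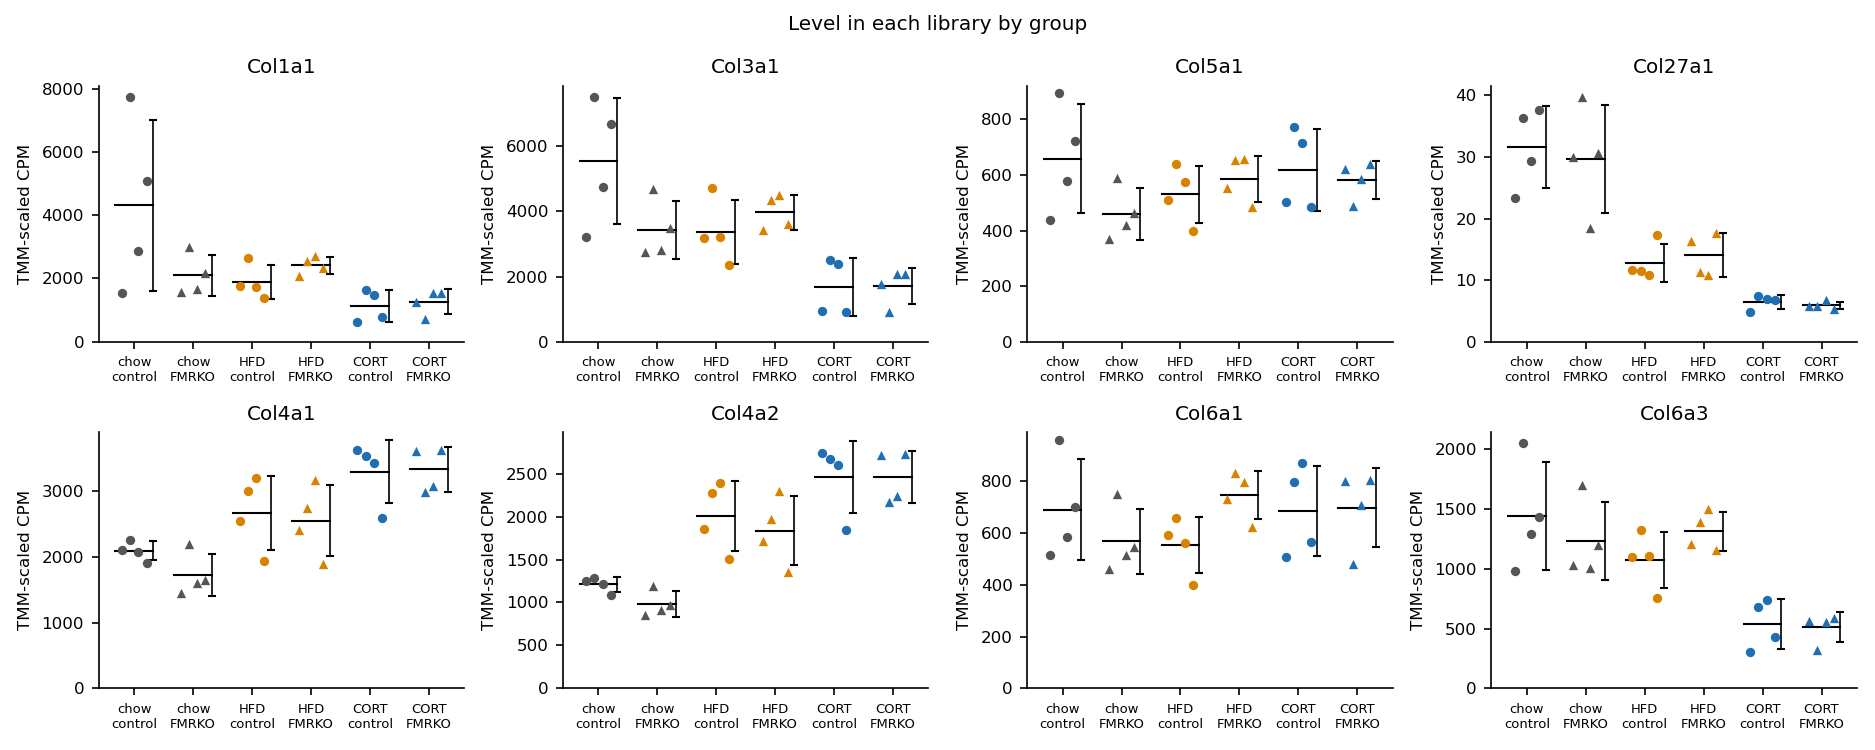
TMM-scaled CPM of 8 collagen genes in each of the 24 libraries, by group (HFD, high-fat diet, CORT, corticosterone). Points are libraries, lines group means and error bars 1 SD with n = 4. Chow controls spread widely for Col1a1, and with corticosterone Col4a1 and Col4a2 lie above and Col27a1 and Col6a3 below all chow libraries of the same genotype.

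As shares of the collagen counts of a library, fibrillar members held 64.7% ± 8.24 (SD, n = 4) in chow controls and 37.0% ± 6.15 in corticosterone controls. Basement membrane members held 16.7% ± 5.94 and 41.6% ± 7.82. Minor collagens held 18.5% ± 2.34 and 21.4% ± 2.26. In FMRKO mice the fibrillar share was 58.3% ± 1.67 on chow and 38.3% ± 4.19 with corticosterone, and the basement membrane share 19.2% ± 1.34 and 41.4% ± 4.73. The ranges of chow and corticosterone did not overlap for either class in either genotype. On the high-fat diet the fibrillar share was 48.9% ± 3.20 in controls and 52.7% ± 2.61 in FMRKO mice, between the other conditions, and the basement membrane share 28.5% ± 2.59 and 23.7% ± 2.33.

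**Figure D4:**
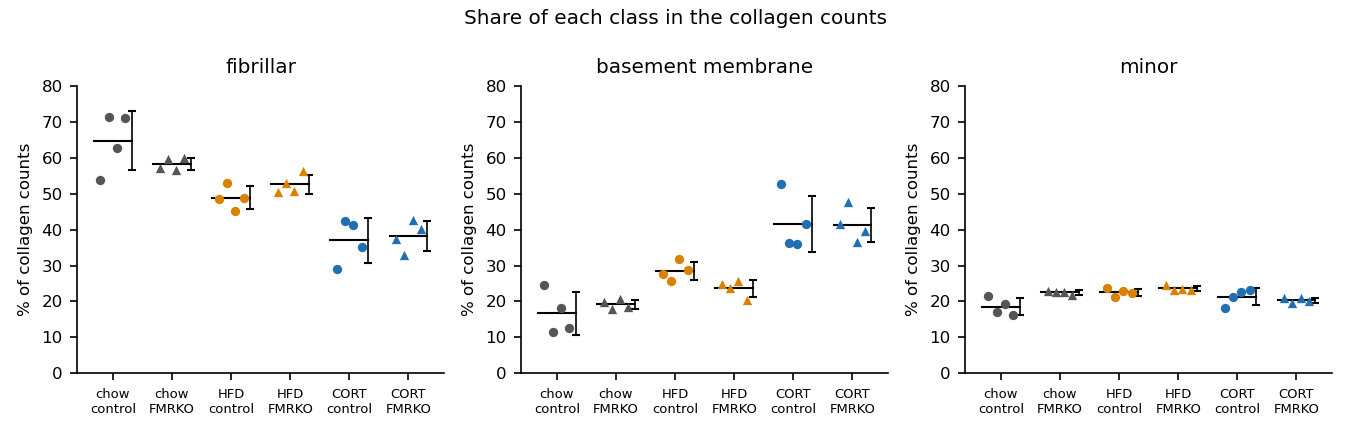
Share of the collagen counts held by fibrillar, basement membrane and minor collagens in each library, in percent, by group. Points are libraries, lines means and error bars 1 SD with n = 4. The fibrillar share is lowest and the basement membrane share highest with corticosterone in both genotypes.

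Markers of fibroblasts were lower with corticosterone. So were the type I and III chains, though Col1a1 passed in controls only. Among the other fibrillar chains Col5a1 passed in neither genotype and Col5a3 was higher in FMRKO mice. The 7 fibroblast and preadipocyte markers summed to 499 to 956 CPM in chow controls and 342 to 476 CPM in corticosterone controls, and to 519.7 to 840.4 and 386 to 443 CPM in FMRKO mice. Of the 7, 6 were lower with corticosterone in controls and 5 in FMRKO mice, such as Pdgfra at -1.03 ± 0.16 and Dpp4 at -1.71 ± 0.33 in controls (adjusted p = 4.8e-05 and 3.3e-04). Among all genes, 20.2% were higher and 22.7% lower in controls, and 20.2% and 20.9% in FMRKO mice. These shares are the background for each marker count given here. All 6 endothelial markers were lower in controls and 4 of 6 in FMRKO mice, with sums of 666 to 801 CPM in chow controls and 389 to 461 CPM in corticosterone controls, while Col4a1 and Col4a2 rose. Of 5 mural cell markers 1 was higher and 3 lower in controls. The 6 macrophage markers summed to 255 to 893 CPM in chow controls and 440.3 to 748 CPM in corticosterone controls, where 0 of 6 passed the test. In FMRKO mice the sums were 351 to 451 and 601 to 799 CPM, without overlap, and 3 of 6 were higher: Cd68, Adgre1 and Trem2 (log2 differences of 1.93 ± 0.46, 1.19 ± 0.32 and 2.80 ± 0.78, adjusted p = 0.002, 0.006 and 0.008). Of the 6 adipocyte markers 3 were higher in each genotype and 0 lower. The part of cell numbers in these differences was not tested. In bulk tissue, fewer cells of a type and less RNA per cell cannot be told apart.

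The high-fat diet asked the same question of diet-induced obesity. In control mice 7 collagens were lower and 2 higher, 23.1% of 39 against 29.2% of all genes tested (15.3% higher and 13.9% lower). In FMRKO mice 3 were lower and 7 higher, 25.6% against 24.4% (15.2% higher and 9.18% lower). Both shares of the members are close to the background of the whole table. The median log2 difference was -0.35 in controls (all genes 0.01) and 0.00 in FMRKO mice (all genes -0.06). In controls the lower members were 5 of 10 fibrillar, 0 of 6 basement membrane and 2 of 23 minor collagens. Col27a1, Col7a1 and Col20a1 were lower and Col4a2 and Col28a1 higher in both genotypes. Without the lymph node libraries the FMRKO count was 6, and it was 6 without the muscle libraries or without high-fat diet FMRKO 3. The control count was 9 and 6 in the first 2 of these settings, and 5 when the fit held only the groups compared.

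Col4a2 rose on the high-fat diet in both genotypes and Col4a1 in FMRKO mice. The level of Col4a2 was 1856, 2280.4, 2386 and 1508 CPM in high-fat diet controls, all above the chow controls, and at 1720.3, 1971, 2299 and 1351 CPM in FMRKO mice against 849.7, 1197, 910.5 and 975 CPM on chow. The log2 differences were 0.73 ± 0.17 and 0.90 ± 0.18 (adjusted p = 0.004 and 7.6e-04). Col4a1 was at 2401, 2738, 3172 and 1883 CPM in FMRKO mice, 0.57 ± 0.18 from chow (adjusted p = 0.023), and the groups overlapped. That call was lost without chow FMRKO 1 (0.51), 3 (0.53) or 5 (0.55) or high-fat diet FMRKO 2 (0.48) or 3 (0.40). It was also lost without the muscle libraries, with no filter on low counts and with only the groups compared. Col4a1 and Col4a2 had lower counts in the high-fat diet libraries 4 of both genotypes than in the other high-fat diet libraries of their group. Those libraries had lymph node marker sums of 605 and 321 CPM, whose part in these values was not tested.

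Col1a1 was at 1774, 2637, 1735 and 1393 CPM in high-fat diet controls, -1.19 ± 0.40 from chow (adjusted p = 0.028), and Col1a2 at 1282, 1875, 1298 and 988 CPM, -1.07 ± 0.33 (adjusted p = 0.018). Both overlapped the lowest chow control. Without chow control 2 the differences were -0.77 and -0.81 and neither passed. The Col1a1 call was also lost without chow control 5 (-1.15), high-fat diet control 1 (-1.2), high-fat diet control 3 (-1.19) or high-fat diet control 4 (-1.12) and without the lymph node libraries (-0.94). In FMRKO mice Col1a1 was at 2086, 2551, 2702 and 2327 CPM on the high-fat diet, and the difference from chow was 0.20 ± 0.39 (adjusted p = 0.747). Col3a1 passed in neither genotype, with -0.72 ± 0.34 and 0.21 ± 0.34 (adjusted p = 0.123 and 0.702).

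Col27a1 was lower on the high-fat diet in both genotypes, and no library overlapped chow. Controls stood at 11.6, 11.5, 10.8 and 17.4 CPM and FMRKO mice at 16.4, 11.3, 10.8 and 17.7 CPM, with log2 differences of -1.30 ± 0.22 and -1.07 ± 0.22 (adjusted p = 1.9e-04 and 0.001). Col20a1, a FACIT collagen, was at 5.88, 5.01, 7.26 and 7.48 CPM in chow controls and 2.96, 2.08, 2.57 and 2.62 CPM on the high-fat diet, and fell, with log2 differences of -1.32 and -1.26 (adjusted p = 3.5e-05 and 6.6e-05). Col7a1, the anchoring fibril collagen of skin, fell, with log2 differences of -2.30 and -1.38 (adjusted p = 6.6e-04 and 0.025). Its chow control 2 stood at 10.6 CPM against 2.61 to 2.92 in the other chow controls, and without it the control difference was -1.54 (adjusted p = 0.003). The FMRKO call of Col7a1 was lost without chow FMRKO 5 (-0.94), high-fat diet FMRKO 1 (-1.36) or high-fat diet FMRKO 3 (-1.41), without the lymph node libraries (-1.64, adjusted p = 0.091) or the muscle libraries (-0.99, adjusted p = 0.14), and with both marker levels as covariates (-1.12, adjusted p = 0.062). Col24a1 and Col11a1 were lower in controls, -2.62 ± 0.91 and -1.34 ± 0.47 (adjusted p = 0.035 and 0.038). Without chow control 2 they were at -1.85 and -1.11 and did not pass. The Col24a1 call was also lost without chow control 5 (-2.67) or high-fat diet control 1 (-2.92), 2 (-2.27) or 3 (-2.45). The Col11a1 call was lost without chow control 4 (-1.38) or 5 (-1.39) or high-fat diet control 3 (-1.05) or 4 (-1.24). Both calls were lost without the muscle libraries, with both marker levels as covariates and with only the groups compared. The Col11a1 call was lost as well without the lymph node libraries and with no filter on low counts.

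Of the 23 minor collagens, 5 were higher and 2 lower on the high-fat diet in FMRKO mice. These counts are close to the shares of all genes there (15.2% higher and 9.18% lower). Col12a1, a FACIT collagen, was at 17.2, 19.5, 9.54 and 12.4 CPM on chow and 39.5, 39.2, 66.4 and 54.2 CPM on the high-fat diet, 1.77 ± 0.57 (adjusted p = 0.027). Its control groups overlapped, as chow control 2 stood at 82.1 CPM against 5.75 to 12.6 in the other 3, and the control difference was 0.93 ± 0.56 (adjusted p = 0.214). Col16a1 went from 11.8, 14.1, 12.4 and 17.7 to 31.3, 37.0, 39.7 and 31.8 CPM in FMRKO mice, 1.32 ± 0.35 (adjusted p = 0.009). Col15a1 went from 417, 653, 459 and 439 to 881, 939.6, 1121 and 734 CPM, 0.90 ± 0.26 (adjusted p = 0.014), a call lost without high-fat diet FMRKO 3 (0.75). Col18a1 and Col28a1 rose by 0.81 and 1.46 (adjusted p = 0.011 and 0.001). Col28a1 also rose in controls, 0.92 ± 0.29 (adjusted p = 0.024), a call lost without high-fat diet control 3 (0.63), chow control 1 (0.83) or chow control 4 (0.85). Without the 6 lymph node libraries, 2 of them chow FMRKO and 2 high-fat diet FMRKO, Col12a1, Col15a1, Col16a1 and Col18a1 had log2 differences of 1.75, 0.94, 1.29 and 0.68 and did not pass (adjusted p = 0.20, 0.090, 0.11 and 0.062). Col12a1 also did not pass without chow FMRKO 3 (1.61), chow FMRKO 5 (1.70), high-fat diet FMRKO 3 (1.56) or high-fat diet FMRKO 4 (1.67). Neither Col12a1 nor Col15a1 passed without the muscle libraries. The control call of Col28a1 was also lost without those libraries and with only the groups compared.

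Corticosterone was also set against the high-fat diet. No chow group enters this difference, but the filter, scaling and spread estimate of the fit used all 24 libraries, chow included. In controls 11 collagens were lower and 3 higher (35.9% against 24.9% of all genes, of which 10.6% higher and 14.2% lower). In FMRKO mice 12 were lower and 1 higher (33.3% against 15.8%, of which 7.27% higher and 8.49% lower). In both genotypes 9 members were lower, among them Col1a2, Col3a1, Col6a3, Col14a1, Col16a1 and Col27a1, and Col18a1 was higher. The log2 differences of Col14a1 were -2.07 ± 0.40 and -2.0 ± 0.40, those of Col16a1 -1.98 ± 0.36 and -2.19 ± 0.36, and those of Col6a6 -1.62 ± 0.36 and -2.10 ± 0.36 (adjusted p from 2.8e-04 to 0.003). Col8a1, of vessel walls, was lower, with log2 differences of -1.64 and -1.80 (adjusted p = 0.003 and 0.002). Col4a1 and Col4a2 did not pass in either genotype, with differences from 0.29 to 0.42. Without the lymph node libraries, 2 of which sit in each high-fat diet group, the count was 8 in each genotype. It was also 8 in controls without corticosterone control 1 or control 4. Among the alternatives run, the control calls of Col1a2 and Col3a1 were lost in 15 and 14 of 32, with the smallest differences at -0.69 without high-fat diet control 2 for Col1a2 and -0.74 without corticosterone control 4 for Col3a1. In FMRKO mice both were lost without corticosterone FMRKO 2 (-0.92 and -0.97) and without the lymph node libraries (-1.2 and -1.35, adjusted p = 0.068 and 0.0503). The FMRKO call of Col1a2 was also lost without high-fat diet FMRKO 2 (-1.06), high-fat diet FMRKO 4 (-1.09) or corticosterone FMRKO 1 (-1.11). The control call of Col6a3 was lost without corticosterone control 1 (-0.75) or 4 (-0.85), and both calls of Col18a1 without the lymph node libraries (0.55 and 0.58).

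Col6a4, which had a control difference of -6.27 ± 1.90 (adjusted p = 0.020), was at 2.67, 0, 0.139 and 9.72 CPM in high-fat diet controls and 0.0717, 0, 0.0825 and 0 CPM with corticosterone. Its high values lay in high-fat diet control 1 and 4 and, across the series, in the libraries rich in lymph node transcripts, such as 7.14, 0.273, 3.56 and 0 CPM in chow FMRKO mice. Without those libraries the difference was -0.94 (adjusted p = 0.74), and with the lymph node and muscle marker levels as covariates it was 0.03. It also lost its call without high-fat diet control 4 (-4.48), corticosterone control 2 (-5.75) or corticosterone control 4 (-5.92).

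No collagen differed between FMRKO and control mice past the threshold. On chow the Nr3c2 levels of the genotypes overlapped, as given above. FMRKO against control gave 0 of 39 members on chow, on the high-fat diet, with corticosterone and over the mean of the 3 conditions, where 0.0101%, 0.0101%, 0.00507% and 0.0355% of all genes passed. At an unadjusted p under 0.05 there were 9 members on chow, 0 on the high-fat diet, 1 with corticosterone and 3 over the mean, against 11.9%, 3.96%, 4.28% and 6.66% of all genes. DESeq2 called 0 in each. A fit of the 8 high-fat diet libraries alone, with the replicate number as a block, again called 0 of 36 members tested. This fit was added after the data were seen, and whether replicate numbers pair the libraries is not shown. At an unadjusted p under 0.05 it had 7 members, against 11.2% of all genes. These were Col1a1, Col1a2, Col6a1, Col6a2, Col6a3, Col6a5 and Col6a6, all higher in FMRKO mice, by 0.30 to 1.42 on the log2 scale (adjusted p from 0.11 to 0.43). On chow all 9 were lower, against 5.41% of all genes lower at this p, among them Col1a1 at -1.04 ± 0.39 (unadjusted p = 0.015, adjusted p = 0.312) and Col18a1 at -0.67 ± 0.23 (adjusted p = 0.288). The chow groups overlapped for Col1a1, whose controls 2 and 5 lay above all 4 FMRKO libraries and whose control 1 lay below all of them. Leaving out chow control 1 gave 1 member past the threshold on chow, Col16a1, at -1.48 (adjusted p = 0.048). With corticosterone the 1 member was Col4a6, at 1.31 ± 0.47, and over the mean the 3 were Col6a4, Col16a1 and Col18a1, at 1.96, -0.53 and -0.28 (adjusted p from 0.679 to 1.000); all were chosen after their values were seen.

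The difference of the FMRKO effect between a treatment and chow tests whether genotype altered the response. It passed for 0 of 39 collagens for the high-fat diet and 0 for corticosterone (0% of all genes in both), with 5 and 3 members at an unadjusted p under 0.05 (9.83% and 5.94% of all genes) and 0 called by DESeq2. The 5 were Col1a1, Col1a2, Col5a1, Col6a1 and Col16a1, and the 3 were Col1a1, Col14a1 and Col28a1. For Col1a1 this difference was 1.4 ± 0.55 for the high-fat diet and 1.2 ± 0.55 for corticosterone (adjusted p = 0.481 and 0.830). The Col1a1 call in controls and its absence in FMRKO mice is therefore not a shown difference between genotypes. A p that misses the threshold does not show that the genotypes respond alike.

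Ratios of partner chains compare genes of the same trimer within 1 library, and so do not depend on library scaling. Col6a3 to Col6a1 was 0.70, 0.78, 0.81 and 0.75 in chow controls and 0.22, 0.31, 0.31 and 0.28 in corticosterone controls, on the RPKM scale. The group means were 0.76 ± 0.05, 0.79 ± 0.05, 0.71 ± 0.03 and 0.65 ± 0.04 in chow control, chow FMRKO and the corresponding high-fat diet groups, and 0.28 ± 0.04 and 0.27 ± 0.02 with corticosterone (SD, n = 4). All 8 corticosterone libraries lay below all 16 others. Col5a1 to Col5a2 went from 1.87 ± 0.11 in chow controls to 2.91 ± 0.19 with corticosterone, and from 1.90 ± 0.07 to 3.03 ± 0.40 in FMRKO mice, again with all 8 corticosterone libraries apart. Col4a1 to Col4a2 was 1.68 ± 0.04 and 1.69 ± 0.06 on chow (control, then FMRKO). High-fat diet groups had means of 1.29 ± 0.04 and 1.35 ± 0.01, and corticosterone groups 1.30 ± 0.04 and 1.32 ± 0.03. All 8 chow libraries lay above the 16 others. That split coincides with the form of the titles, and the treatments and a possible chow batch cannot be told apart for it. Col6a1 to Col6a2 was 1.82 ± 0.10 in chow controls and 2.26 ± 0.14 with corticosterone. Col1a1 to Col1a2 was 2.64 ± 0.47 and 2.86 ± 0.25, with overlap.

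**Figure D5:**
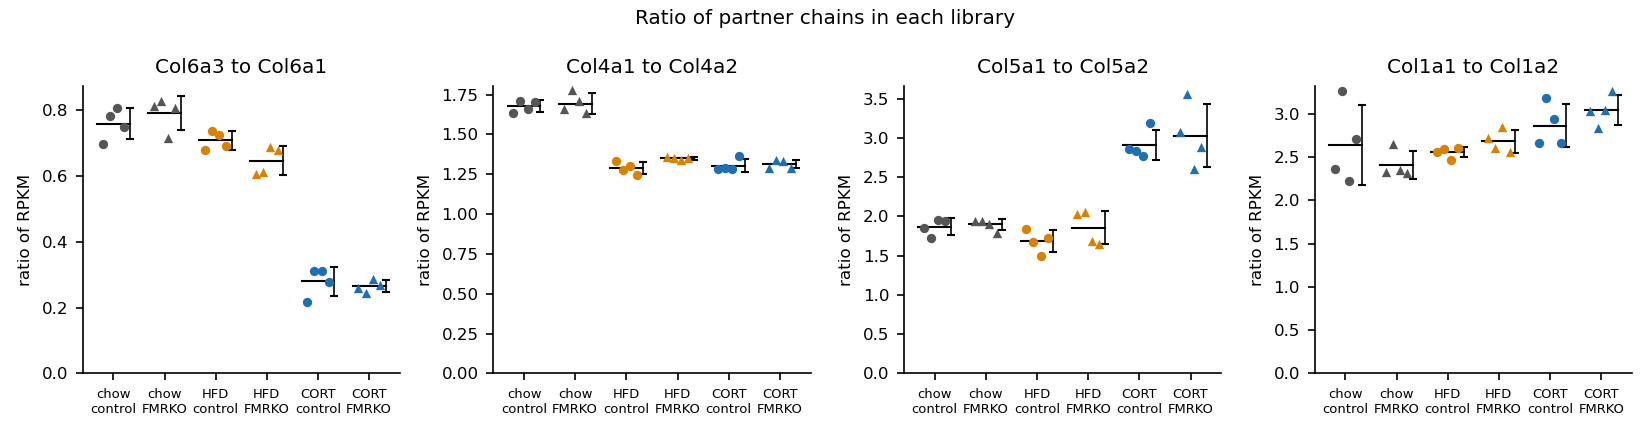
Ratio of the RPKM of partner chains in each library, by group. Points are libraries, lines means and error bars 1 SD with n = 4. Col6a3 to Col6a1 is below 0.4 in all corticosterone libraries and above 0.6 in all others.

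Summed over chains, Col1a1, Col1a2 and Col3a1 stood at 2.98 ± 1.42 times the RPKM of Col4a1 and Col4a2 in chow controls. The ratio was 1.97 ± 0.23 in chow FMRKO mice, 1.07 ± 0.20 and 1.43 ± 0.25 on the high-fat diet, and 0.47 ± 0.19 and 0.50 ± 0.15 with corticosterone. Chow control libraries ran from 1.33 in library 1 to 4.38 in library 2.

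Genes that act on collagen were counted from lists chosen by function. Of 16 genes that modify and fold chains, 6 were higher and 5 lower with corticosterone in controls, and 8 and 4 in FMRKO mice. Of all genes 20.2% were higher and 22.7% lower in controls, and 20.2% and 20.9% in FMRKO mice. Plod3, a lysyl hydroxylase, rose by 0.96 ± 0.14 and 1.16 ± 0.14, and P3h3, a prolyl 3-hydroxylase, fell, with log2 differences of -1.53 and -0.74 (adjusted p from 3.0e-06 to 0.003). Serpinh1, the collagen chaperone, passed on the high-fat diet in FMRKO mice, 0.89 ± 0.21 (adjusted p = 0.004). Of 12 genes of extracellular processing and crosslinking 1 was higher and 8 lower in corticosterone controls. The 1 was Lox, which crosslinks fibrils, at 2.12 ± 0.24 (adjusted p = 1.1e-06), while Loxl2 and Bmp1, a procollagen C-proteinase, were at -1.55 ± 0.30 and -1.09 ± 0.23 (adjusted p = 3.6e-04 and 6.6e-04).

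The same all-gene shares for controls (20.2% higher and 22.7% lower) are the background for the next lists, and the counts of basement membrane partners, TGF-beta inputs and proteoglycans are close to them. Of 10 partners in the basement membrane 3 rose and 2 fell with corticosterone in controls. Nid1 and Nid2, the nidogens that link type IV collagen to laminin, rose by 0.77 ± 0.16 and 1.46 ± 0.15, and Lama5 and Lama2, laminin chains, fell, with log2 differences of -1.22 and -0.91 (adjusted p from 2.8e-07 to 0.002). Of 8 receptors tested 2 rose and 5 fell: Itgb1, the shared beta 1 integrin chain, was at 1.02 ± 0.12 and Ddr2, a receptor for fibrillar collagen, at -0.96 ± 0.19 (adjusted p = 2.7e-06 and 3.8e-04). Of 13 genes of degradation and uptake 1 rose and 7 fell. Timp4, a tissue inhibitor of metalloproteinases, rose by 3.40 ± 0.33, and Mmp2 and Mmp14 fell, with log2 differences of -1.56 and -1.37 (adjusted p from 2.0e-07 to 1.4e-04). Of 7 TGF-beta inputs tested, from a pathway that drives fibrillar collagen, 1 rose and 2 fell. Tgfb3 was at 1.35 ± 0.14 and Tgfb2 at -2.53 ± 0.41 (adjusted p = 4.0e-07 and 6.6e-05), while Tgfb1 was at -0.08 ± 0.28 and did not pass. Of 6 small leucine-rich proteoglycans, which regulate fibril width, 1 rose and 2 fell. Prelp rose by 2.30 ± 0.21, and Lum and Dcn fell, with log2 differences of -1.09 and -0.43 (adjusted p from 7.9e-08 to 0.039).

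On the high-fat diet the same lists gave 1 higher and 4 lower of the 16 chain-modifying genes in controls and 8 and 1 in FMRKO mice, against 15.3% higher and 13.9% lower of all genes in controls and 15.2% and 9.18% in FMRKO mice. For processing and crosslinking the counts were 2 and 5 of 12 in controls and 4 and 1 in FMRKO mice, and for degradation and uptake 1 and 7 of 13 and 1 and 1. Of the 10 basement membrane partners 1 was higher and 2 lower in controls, and 4 and 1 in FMRKO mice. Of the 6 small leucine-rich proteoglycans 3 and 2 were higher and 0 lower, among them Bgn (biglycan) at 0.80 ± 0.24 and 1.75 ± 0.25 (adjusted p = 0.016 and 3.2e-05). FMRKO against control changed 0 genes of any of these lists in any condition.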

How the data were processed

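Per the labels' protocols, total RNA was depleted of ribosomal RNA before library preparation. Per the submitters' processing notes, the authors used STAR 2.5.1a, featureCounts 1.4.6p-5 and GRCm38. The annotation and strand setting are absent from the sources used here. The deposited files hold raw counts, CPM and RPKM by the authors for each library. Counts were tested with edgeR 4.0.16 (filterByExpr with a minimum count of 10, TMM scaling, quasi-likelihood, 24 libraries in 6 groups, 12 contrasts, Benjamini-Hochberg adjustment over 19717 genes, threshold 0.05). CPM in the text is TMM-scaled from the counts, and RPKM in the text divides it by the gene length in the deposited files; chain ratios are the same from the deposited RPKM. Against chow, deposited CPM without TMM moves log2 differences by -0.20, -0.29, -0.21 and -0.24 (high-fat diet control and FMRKO, corticosterone control and FMRKO). This changed the sign of no called member named, but of uncalled ones. On the high-fat diet these were Col8a1 and Col18a1 in controls and Col1a1, Col1a2, Col3a1, Col5a3, Col6a3 and Col6a6 in FMRKO mice. With corticosterone they were Col15a1 in both genotypes and Col12a1 in FMRKO mice. The script was tested on simulated data. Library pairs of the same replicate number deviated together on the high-fat diet (r = 0.20, 0.55, 0.55 and 0.72). They did not on chow (-0.28, 0.11 and -0.14) or corticosterone (0, -0.04, 0.05 and 0.08). Pairs with different numbers were not compared, so the values do not show a pairing of FMRKO and control. On the high-fat diet, libraries 1 and 4 of both genotypes were those rich in lymph node transcripts, whose part in these correlations was not tested. The members and lists were chosen with earlier results of these data known. Named were 12 abundant chains in any comparison and up to 6 called members in each direction; members named outside this rule were chosen after their values were seen. Gene positions are the outermost exon positions deposited with the counts, and all 44 members overlap their GENCODE M21 positions. Promoter windows are from RefSeq (GRCm38.p6), and their annotated exons from GENCODE M21.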

Additional observations from a re-analysis of the deposited data

Results flagged for a closer look

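In 28 abundant or named members, 168 groups of 4 libraries were searched for a library far from the other 3, and 9 (5.36%) held one, where chance gives about 1 in 20. In chow controls, library 2 was high for Col7a1 (10.6 CPM, others 2.61 to 2.92) and Col12a1 (82.1 CPM, others 5.75 to 12.6). In chow FMRKO mice, library 2 was high for Col5a3 (768 CPM, others 515 to 534). On the high-fat diet, control library 4 was high for Col27a1 (17.4 CPM, others 10.8 to 11.6) and low for Col5a3 (414 CPM, others 690 to 712), and control library 3 was high for Col6a6 (19.5 CPM, others 9.63 to 10.6). With corticosterone, control library 4 was low for Col4a2 (1846 CPM, others 2595 to 2740) and high for Col28a1 (11.8 CPM, others 5.02 to 6.17), and FMRKO library 2 was low for Col6a3 (323 CPM, others 559 to 592). High-fat diet control library 4 was one of the 6 rich in lymph node transcripts, at 605 CPM of the marker list, and the part of this in its values was not tested.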

How the results depend on the processing

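Each comparison was refitted in 32 ways: with DESeq2, RLE size factors, no filter, only the groups compared, a replicate block, without the lymph node or the muscle libraries, with both as covariates, and without each of the 24 libraries. Of 68 calls of named members, 41 were kept in all 32 and 27 were lost in at least 1. The cause of these changes was not tested. The share of all genes called is not given for these refits. A change in the count of collagens called therefore cannot be told apart from a change over all genes. The count of collagens called on the high-fat diet was 5 in controls with only the groups compared, and 6 and 6 in FMRKO mice without the lymph node and the muscle libraries. Between corticosterone and the high-fat diet it was 8 in controls and 8 in FMRKO mice without the lymph node libraries. Leaving out 1 library gave 6 to 12 calls for the high-fat diet in FMRKO mice, 8 to 16 for corticosterone against the high-fat diet in controls and 0 to 1 for FMRKO on chow. With a replicate block the counts of the first 6 comparisons were 6, 11, 21, 16, 14 and 16 (main 9, 10, 25, 19, 14 and 13), and FMRKO gave 0 everywhere. A fit of the high-fat diet libraries alone with this block, added after seeing the data, also called 0. It had 7 of 36 members at an unadjusted p under 0.05, against 11.2% of 17484 genes. With the block the calls of named members that were lost were Col1a1 (-1.02), Col11a1 (-1.32) and Col24a1 (-2.21) on the high-fat diet in controls, Col7a1 in FMRKO mice (-1.19, adjusted p = 0.086), Col3a1 (-0.81, adjusted p = 0.064) and Col11a1 (-1.19) with corticosterone in FMRKO mice, and Col6a4 (-5.37), Col6a5 (-2.15) and Col20a1 (0.54) between the treatments in controls. Col5a1 passed with corticosterone in FMRKO mice (0.47).

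Uncalled differences that changed sign were small. For Col1a2 on the high-fat diet in FMRKO mice the value was -0.078 without the lymph node libraries and -0.023 to 0.22 without 1 library. With corticosterone in controls, Col6a1 was at 0.015 with DESeq2 and RLE, 0.017 with no filter and 0.043 without the lymph node libraries (-0.12 to 0.23 without 1 library). There Col15a1 was at -0.14 with the replicate block, -0.059 without muscle libraries and -0.0799 with covariates (-0.16 to 0.22), and Col5a1 ran from -0.24 to 0.13. In FMRKO mice Col15a1 was at -0.014 with only the groups compared, -0.084 without lymph node libraries, -0.050 without muscle libraries and -0.21 with covariates (-0.12 to 0.22), and Col6a2 ran from -0.23 to 0.045. Col6a4, called in corticosterone against high-fat diet controls, was at 0.025 with covariates. The median of minor collagens on the high-fat diet in FMRKO mice was -0.014 with RLE. Deposited CPM kept 69 of 72 levels within 1 SD. At low CPM, as for Col24a1 and Col6a4, few counts limit the precision.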
